A study of Mus musculus with 2 samples.

Results

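The cells described here, called Ccr7 Fscn1 cells, carried transcripts of both Ccr7, the chemokine receptor that guides dendritic cells (DCs) to lymph nodes, and Fscn1, which encodes the actin-bundling protein fascin. A cell was a member when it held at least 2 unique molecular identifiers (UMIs, each standing for 1 captured transcript) of each gene. Membership was sought among barcodes with 1 hashtag, 500 or more detected genes and under 15% mitochondrial UMIs. It was met by 836 of 25221 cells, of which 608 were among 11607 cells of the control library and 228 among 13614 cells of the heme library. Since Ccr7 and Fscn1 chose the cells, the levels of these genes and all contrasts with cells that the rule left out are descriptions.

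The cells came from Lin- (lineage-depleted) bone marrow progenitors of C57BL/6 mice, grown with GM-CSF (20 ng/ml) and sequenced as single cells. The study's methods give an age of 8 to 10 weeks for bone marrow isolation and an older range for all experiments. In the heme group, 300 µM heme bound to albumin was added on day 3, and the control group received albumin alone. Each group was 1 library pooled from 5 cultures, whose hashtags are named for days 0, 3, 4, 5 and 7. The hashtags of days 0 and 3 precede the exposure. Exposure times in the design text (0, 24, 72 and 96 h) do not all match these days, and culture days are used below. With 1 library per group, no difference has a replicate check and no test across cultures was possible. Ranges in parentheses are 95% intervals that cover counting error only, and molecules from 1 library are not replicates of a condition.

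DCs sample antigens with uptake receptors, present peptides on major histocompatibility complex (MHC) molecules and prime T cells. On maturation they switch from uptake towards presentation and costimulation, gain Ccr7 and fascin, and secrete the chemokines Ccl17 and Ccl22, a programme tied to NF-kB signalling. Heme is degraded by heme oxygenase 1 (Hmox1), and it raises antioxidant genes through the transcription factor NRF2 and releases the repressor Bach1.

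The markers of mature DCs that the rule had not used were present in most members. At least 1 UMI of each of Ccl22, Il4i1 (an amino acid oxidase of mature DCs) and Cd83 was present in 759 members (90.8%). Levels are given as CPM (counts over the members of a culture, scaled to the same total for every culture). The 5 mature DC markers, which include both rule genes, summed to between 5224 and 7663 CPM on days 4 to 7. T cell markers summed to at most 1.35 CPM and B cell markers to at most 3.04 CPM. The macrophage marker Marco was at 0 in the control members of these days and at 11.3, 6.76 and 32.6 CPM in the heme members of days 4, 5 and 7. Neutrophil markers were present at higher levels, given below. The 95 members with exactly 2 UMIs of a rule gene all held Ccl22 UMIs, at 2858 CPM. Just outside, the 29 cells with 1 UMI of each gene held Ccl22 in 51.7% of cells, at 237 CPM, whereas the 203 cells with 2 or more Ccr7 UMIs and no Fscn1 UMI held Ccl22 in 89.7%, at 2378 CPM. On the other side, the 37 cells with 2 or more Fscn1 UMIs and no Ccr7 UMI held Ccl22 in 78.4%, at 2069 CPM, and the 17 cells with 1 Ccr7 UMI and 2 or more Fscn1 UMIs held it in every cell, at 2138 CPM. The boundary thus cut through cells with Ccl22 on both sides.

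**Figure D1:**
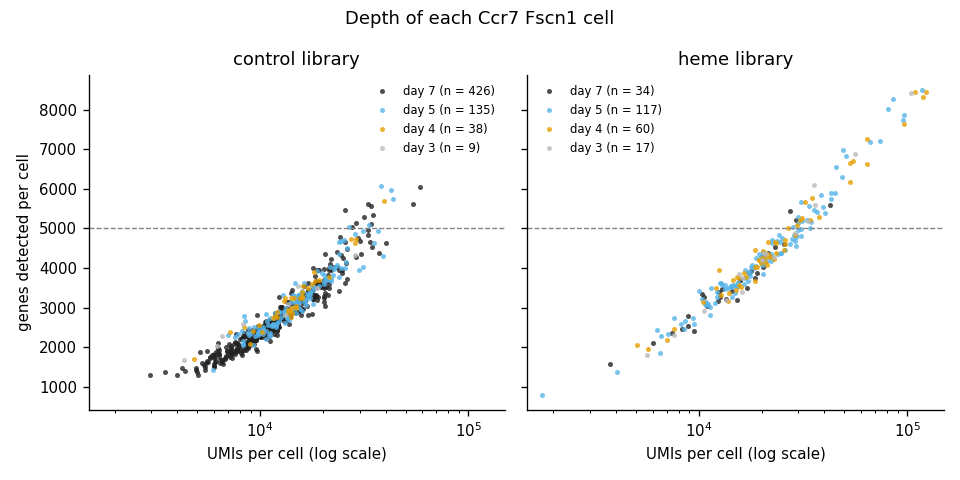
Genes detected against UMIs (log scale) for each of the 836 Ccr7 Fscn1 cells, 1 point per cell, coloured by hashtag day, with the control library on the left and the heme library on the right. The dashed line marks 5000 genes, above which lay 17 of 60 heme members on day 4 and 28 of 117 on day 5, against 1 of 38 and 5 of 135 control members.

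Heme members held more UMIs per cell than control members. The median member held 14158, 14771 and 11404.5 UMIs on days 4, 5 and 7 in the control library and 21152.5, 20311 and 15512 in the heme library, and the 9 control and 17 heme members of day 3 held medians of 13193 and 20581. Members with over 5000 genes made up 2.63%, 3.7% and 2.35% of the control members on days 4, 5 and 7. In the heme library they made up 28.3%, 23.9% and 8.82% of members and supplied 56.4%, 48% and 18% of their UMIs. This was not particular to members, since other cells over this limit were 6.83%, 8.64% and 5.50% in control and 17.0%, 28.5% and 27.5% in heme. On days 0 and 3, before the exposure, other cells over it were 2.00% and 8.70% in control and 17.4% and 35.1% in heme. The heme members of day 4 with over 5000 genes carried more RNA of phagocyte genes than the others, with the lysozyme gene Lyz2 at 1931 against 309 CPM and the integrin gene Itgax at 216 against 25.9 CPM. Results that turn on these cells are therefore also given for members with up to 5000 genes. Mitochondrial UMIs had a median of 9.82% in the heme members of day 7 against 5.65% in control, and with a limit of 10% the day 7 members were 19 in heme (0.696%) and 423 in control. Neutrophil markers summed to 10000, 4075 and 1040.5 CPM in control members of days 4, 5 and 7 and to 2810.1, 5338 and 1978 CPM in heme members, so that control was higher on day 4 and heme on days 5 and 7. On control day 4 this sum was above that of the mature DC markers. In other cells of the same cultures it was 135378, 68622 and 4364 CPM in control and 124556, 46000.3 and 17953 CPM in heme. Macrophage markers summed to 57.7 to 109 CPM in control members and 168 to 198 CPM in heme members of days 4 to 7. Monocyte markers summed to 84.7 to 102 CPM in control and 158 to 191 CPM in heme members. Erythroid markers summed to 112, 82.1 and 79.2 CPM in control and 209.8, 289 and 74.3 CPM in heme members of days 4, 5 and 7. The part of these markers in the results below was not tested.

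Doublets were treated through the hashtag calls alone, and the frequency of barcodes with mixed hashtags implied that 2.75% of the control and 3.68% of the heme singlets were pairs of cells with the same hashtag. Among barcodes with mixed hashtags, 117 of 1244 (9.41%) in the control library and 67 of 1951 (3.43%) in the heme library met the rule. The libraries shared 112 barcodes, none of which was a member in both, and 5 members had a barcode present in the other library. The part of doublets and of depth in the results below was not tested.

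Ccr7 Fscn1 cells made up more of the culture on each later day in control, and fewer on day 7 than on day 5 in heme. In the control library they were 0 of 1646, 9 of 2089, 38 of 2263, 135 of 2601 and 426 of 3008 cells on days 0, 3, 4, 5 and 7, which is 0%, 0.431%, 1.68%, 5.19% and 14.2%. In the heme library they were 0 of 1827, 17 of 3351, 60 of 2999, 117 of 2665 and 34 of 2772 cells, which is 0%, 0.507%, 2.00%, 4.39% and 1.23%. A count of 0 on day 0 allows a share of up to 0.182% in control and 0.164% in heme.

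**Figure D2:**
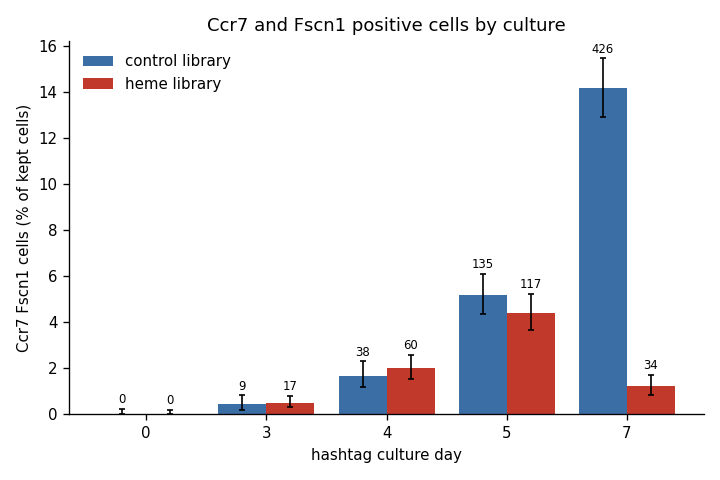
Share of Ccr7 Fscn1 cells among the kept cells of each culture (bars, with the number of members above each) by hashtag day, for the control (blue) and heme (red) libraries. Error bars are exact 95% binomial intervals that cover counting error only, and the bars of both libraries overlap until day 5 and part on day 7, at 14.2% and 1.23%.

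On day 3 the heme share minus the control share was 0.0765 percentage points (-0.363 to 0.460). Day 4 gave 0.321 points (-0.456 to 1.07). For day 5 it was -0.800 points (-1.99 to 0.380), and each interval held 0, so that no difference was detectable at these counts. When each cell was thinned to 5000 UMIs before the rule was applied, the difference on day 5 was -1.27 points (-2.55 to -0.0185), and the heme share on day 7 was 0.555% against 10.4% in control. On day 7 the heme share was 12.9 points lower than the control share (difference -12.9, -14.3 to -11.6), and it stayed between -15.6 and -9.10 points under every other rule and filter tried. Of all control members, 70.1% came from day 7, and of all heme members, 51.3% came from day 5. Shares are relative to all other cells of a culture, so fewer Ccr7 Fscn1 cells and more cells of other kinds cannot be told apart.

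Members stood apart from the other 2582 control cells of day 7 in genes of maturation, and this contrast uses cells chosen by 2 of these genes. Ratios are given as log2 ratios of CPM after subtracting the median over all genes that averaged 20 CPM or more, called relative log2 ratios. A gene was counted when this value passed 1 or -1 (2-fold), and with 1 culture on each side such a count rests on no test. In this contrast 26.4% of 4967 genes passed 2-fold, 12.6% higher and 13.8% lower. The 15 leading genes were Fscn1, Serpinb6b, Ccl5, Ccr7, Nudt17, Car2, Cacnb3, Stat4, Cd83, Hmgn3, Ccl22, Gnb4, Mmp25, Aldh1a2 and Gadd45b. Among them, the serine protease inhibitor gene Serpinb6b stood at 394 CPM in members and 13.7 CPM in other cells. Stat4, a transcription factor of cytokine signalling, stood at 163 against 7.64 CPM. Aldh1a2, whose product makes retinoic acid, stood at 249 against 23.7 CPM, and Car2, a carbonic anhydrase, at 428 against 31.6 CPM.

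The gene groups of maturation and of uptake lay on opposite sides. Of the 20 measured genes of the mature DC programme, 18 were 2-fold higher in members and 0 lower, with a median relative log2 ratio of 3.15 against 0 for all genes by construction. Among T cell costimulators and checkpoint ligands 8 of 9 were higher (median 2.29) and among the NF-kB family and its feedback genes 9 of 15 (median 1.35). All 15 measured uptake receptors and immature phagocyte genes were lower (median -2.77), and so were 13 of 14 cell cycle genes (median -2.14) and 6 of 7 genes of conventional type 2 and monocyte-derived DCs. Of the MHC class II genes only 2 of 10 were higher. Their transcripts were abundant in other control cells too, with H2-Aa at 4009 CPM in members and 2265 CPM in other cells. Ccl17, the T cell chemokine that shares its receptor with Ccl22, was not particular to members and stood at 2644 CPM in members against 5491 CPM in other cells of control day 7. When members were set against the control cells of day 7 with 20 or more H2-Ab1 UMIs and no Ccr7 UMI, 25.9% of 4869 genes passed 2-fold (12.7% higher, 13.2% lower), and 20 of 20 genes of the mature DC programme were higher (median 4.04).

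Genes of DC subsets were mixed. The type 1 markers Xcr1 and Clec9a were at 0.178 and 0.713 CPM in control members of day 7 and at 0 in the heme members of that day. Irf8, a transcription factor of type 1 DCs and other myeloid cells, was at 598 CPM in members against 92.8 CPM in other cells, and Batf3 at 209 against 89.7 CPM. Of 4 type 1 genes measured in members against other cells of control day 7, 2 were 2-fold higher and 2 lower (median -0.18). Irf4, a factor of type 2 DCs, stood at 106 against 88.3 CPM, and the plasmacytoid DC marker Siglech was at 0 in the members of days 4 to 7 in both libraries.

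Control members of day 7 varied most among themselves in Ccl5. With each cell thinned to 5000 UMIs, which left 418 of 426 cells, the ratio of variance to mean was highest for Ccl5 (48.7), an attractant of T cells and monocytes, among the 1005 genes with at least 100 CPM. Ccl5 was present in 87.1% of these cells, with a median of 14.5 and a highest count of 238 UMIs of 5000. Next came the stefin gene Cstdc4 (34.3), Lyz2 (28.6), Ccl17 (18.5), the ferritin gene Fth1 (17.9), Ifitm1 (17.1) and the lipid carrier gene Fabp5 (17.1). Cstdc4 and Lyz2 were absent from most thinned members (present in 23.4% and 41.1%), whereas Fth1 and Fabp5 were present in every one.

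Ccl5 was found in more members of older cultures in both libraries. Its pooled level in members was 637, 2862 and 4658 CPM on control days 4, 5 and 7 and 734, 1982 and 7119.9 CPM on the same heme days. The median member held 102, 515 and 2854 CPM in control and 685, 1470.4 and 7256 CPM in heme. In thinned cells the share of members with a Ccl5 UMI was 54.1%, 64.4% and 87.1% in control and 70.0%, 86.1% and 100% in heme, against 2.97% to 11.9% of other cells on these days and 3.32% and 3.87% of day 0 cells. On day 5 the intervals of these shares were 55.8 to 72.5% in control and 78.4 to 91.8% in heme. These intervals cover counting error only, and cells of the same library are not replicates, so a difference between the libraries was not tested. In contrast to the shares, the pooled level of day 5 was higher in control, whose highest cell held 102138 CPM of Ccl5.

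**Figure D3:**
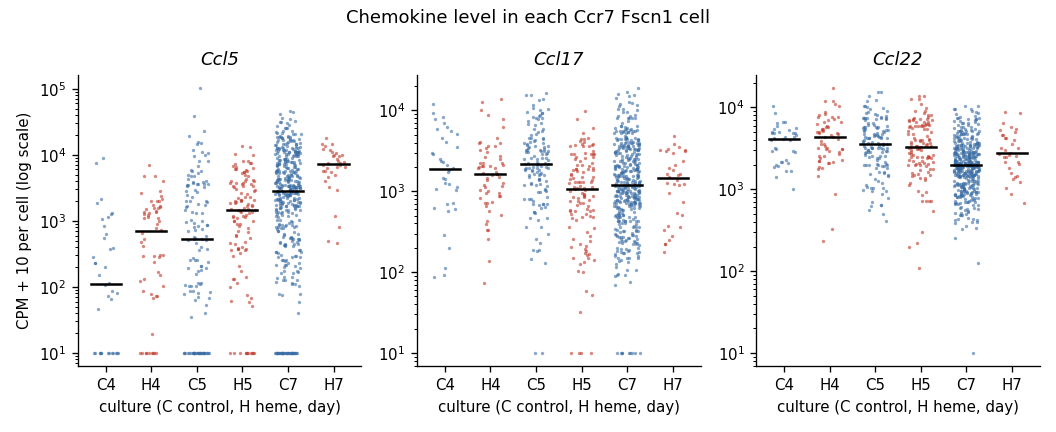
Level of Ccl5, Ccl17 and Ccl22 in each Ccr7 Fscn1 cell as CPM plus 10 (log scale), 1 point per cell, for control (C, blue) and heme (H, red) cultures of days 4, 5 and 7, with black lines at the medians. Ccl5 spans more than the other chemokines, and its median is higher on day 7 than on day 4 in both libraries.

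Few genes separated control members of day 7 from those of day 5. Only 1.4% of 4508 genes passed 2-fold, 0.688% higher and 0.71% lower on day 7. Ranked by size, the leading higher genes included Klk1b11, Tmem37, Ccl4, Fn1, Asgr2, Sh2d1b1, Fabp4, Csrp2 and Sept4, and the lower genes were led by Ngp, Kctd14, Ltf, Apol7c, Lcn2, S100a9, S100a8, Ccnd1, Lad1 and Plac8. Csrp2, a LIM domain protein, went from 27.4 to 94.7 CPM in members, with 20.2 CPM in other cells of day 7, and 2.26, 8.45 and 5.43 CPM in heme members of days 4, 5 and 7. The higher pooled level of day 7 was thus seen in control members alone among these cells. It rested on a minority of them, since 12.9% of the thinned control members of day 7 held a Csrp2 UMI. Their median was 0 and the highest count 29 UMIs of 5000. Sept4, a septin, and Tmem37 were likewise above other cells. Sept4 went from 22.4 to 77.1 CPM and Tmem37 from 7.63 to 42.1 CPM, with 6.12 and 21.2 CPM in other cells of day 7. Klk1b11, a kallikrein, went from 6.28 to 59.6 CPM in members and was at 221 CPM in other cells. As with Klk1b11, Fn1 (fibronectin) was higher in other cells than in members, at 569.5 against 60.1 CPM on day 7.

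The genes that were lower on day 7 included several neutrophil genes. Ngp, Ltf, Lcn2, S100a8 and S100a9 were among the 10, and S100a8 went from 1620.4 to 427 CPM in control members, while neutrophil markers in all other control cells went from 68622 to 4364 CPM in the same interval. The part of free RNA from neutrophils in this change was not tested. Apol7c, Lad1 and Kctd14 differed from these in being low in other cells. Apol7c, an apolipoprotein L family gene, stood at 239, 170.1 and 34.1 CPM in control members of days 4, 5 and 7 and at 474, 142 and 59.8 CPM in heme members, with 1.47 CPM in other control cells of day 7. Lad1 (ladinin) stood at 81.5, 54.3 and 16.6 CPM in control and 91.1, 55.4 and 50.7 CPM in heme members. Lad1 was thus lower on day 7 in control and nearly level in heme. Kctd14 stood at 78.1, 34.6 and 6.24 CPM in control and 114, 51.0 and 14.5 CPM in heme members, with 5.04 CPM in other control cells of day 7. Cd40, a receptor for T cell help, also passed 2-fold, from 60.1 to 26.9 CPM (relative log2 ratio -1.06, interval -1.40 to -0.71). Among lists with 5 or more measured genes, glycolysis had the highest median, 0.70 over 11 genes, of which Pfkl and Tpi1 passed 2-fold. Gapdh went from 1217 to 2051 CPM and Aldoa from 590.1 to 921 CPM. The mature DC programme barely moved (median -0.02, 1 of 23 genes lower).

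Heme members were then set against control members of the same day. Groups of 3 values below give days 4, 5 and 7 in this order. The median log2 ratio of all genes, by which relative log2 ratios are shifted, was 0.16, 0.22 and 0.28. On day 4 9.12% of 5118 genes passed 2-fold (6.47% higher and 2.66% lower in heme), on day 5 6.36% of 5030 genes (3.8% higher, 2.56% lower) and on day 7 16.9% of 4889 genes (8.39% higher, 8.53% lower). With 34 heme members on day 7, counting error is larger there. Of 4458 genes measured on both days, 91 were 2-fold higher and 73 lower in heme on both days 5 and 7.

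Hmox1, the enzyme that opens the heme ring, led the genes that were higher in heme on both days 5 and 7. Its pooled level was 6.79, 4.49 and 12.1 CPM in control members and 1126, 895 and 920.1 CPM in heme members. The relative log2 ratios were 7.21 (5.85 to 9.09), 7.42 (6.53 to 8.48) and 5.96 (5.60 to 6.35). Hmox1 RNA was also found in heme-library cells with hashtags from before the exposure, at 124 CPM on day 0 and 118 CPM in the 17 members of day 3, against 1.84 CPM in control cells of day 0. Both heme-library levels from before the exposure were above those of the control members, so the ratios include this RNA. The source of this RNA was not tested. The median heme member held 167, 211 and 312 CPM, above the median of 105 CPM of day 0 cells but below the pooled values, so that most members held less than the pool. Members with up to 5000 genes pooled to 198, 485 and 360.0 CPM, and those above that limit to 1843, 1339 and 3473 CPM.

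In cells thinned to 5000 UMIs, Hmox1 was present in 65.0% (51.6 to 76.9), 73.9% (64.9 to 81.7) and 75.8% (57.7 to 88.9) of heme members, against 44.4% of day 0 cells. On day 3, before the exposure, it was present in 58.8% (32.9 to 81.6) of the 17 heme members and 51.7% of other cells. The interval of these day 3 members held each share of the later days. With up to 5000 genes the share on day 4 was 55.8% (39.9 to 70.9), and its interval held the day 0 share. Other heme-library cells had far more, with 1978, 3655 and 5209 CPM. Per UMI of Marco, a macrophage receptor, heme members held 99.5, 132 and 28.2 UMIs of Hmox1 (21.9, 83.0 and 40.8 with up to 5000 genes). Day 0 cells held 16.0, and other heme cells held 163, 148 and 11.0, more than members on days 4 and 5. The member ratios rest on 20, 20 and 18 Marco UMIs (7, 9 and 4 with up to 5000 genes).

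**Figure D4:**
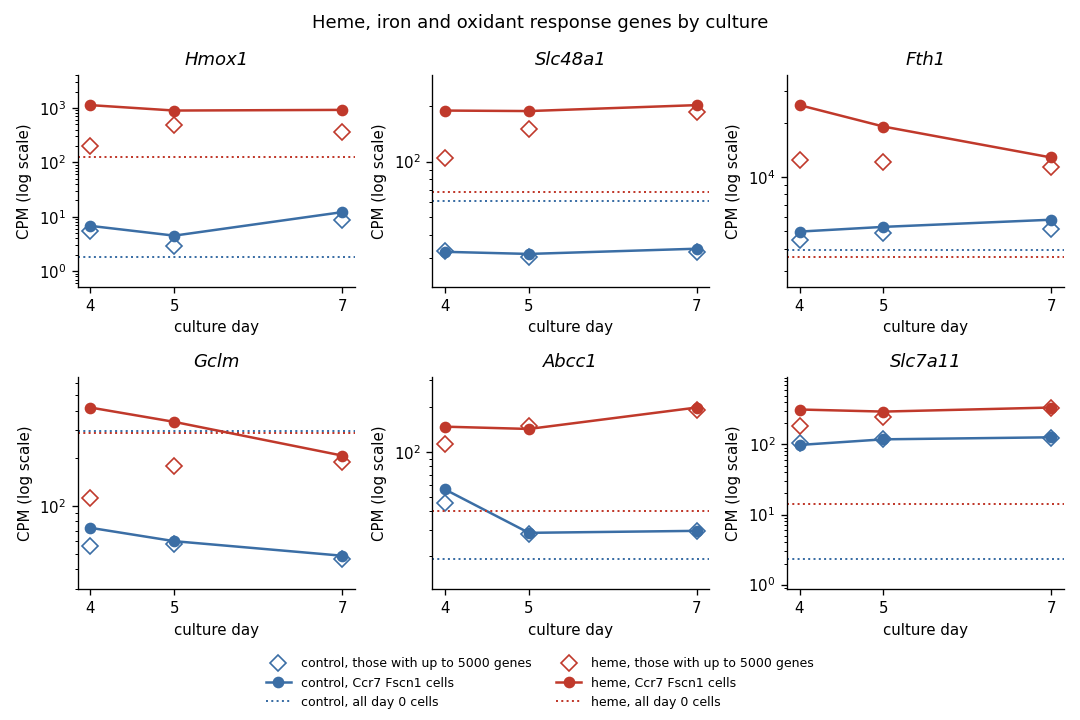
Pooled CPM (log scale, ranges differ between panels) of 6 genes in Ccr7 Fscn1 cells by culture day, for control (blue) and heme (red) libraries, with open diamonds for members with up to 5000 genes and dotted lines at the level of all day 0 cells of each library. Heme members lie above control members in every panel, and for Hmox1 on day 4 the open diamond is at 198 CPM, against 124 CPM in heme day 0 cells.

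Several other genes of heme and iron handling were higher in heme members. Slc48a1, which carries heme out of the lysosome, stood at 32.3, 31.4 and 33.5 CPM in control and 189, 188 and 203 CPM in heme members, with 60.6 and 68.1 CPM in day 0 cells. Its relative log2 ratios of 2.39, 2.36 and 2.32 changed to 1.51, 2.07 and 2.26 in members with up to 5000 genes, so the difference was present in both sets. Fth1, the ferritin heavy chain that stores iron, stood at 4982, 5291 and 5797 CPM in control and 24963, 19001 and 12809 CPM in heme members. Its ratio was highest on day 4 (2.17, 1.62 and 0.86, and 1.30, 1.07 and 0.88 with up to 5000 genes). Spic, a transcription factor of red pulp macrophages, stood at 6.79, 3.14 and 0.357 CPM in control and 50.9, 28.4 and 27.2 CPM in heme members, against 1.48 CPM in heme day 0 cells. With up to 5000 genes it held 48.0, 37.7 and 22.1 CPM, and other heme cells of days 4 and 5 held 25.3 and 28.6 CPM. On day 7 other heme cells held more Spic than heme members, with a relative log2 ratio to other control cells of 9.49. These Spic levels rest on 90, 84 and 15 UMIs in heme members and 4, 7 and 2 in control. The iron exporter Slc40a1 stood at 79.8, 46.0 and 36.2 CPM in heme members, against 5.09, 1.35 and 0.713 CPM in control members. Heme day 0 cells held 57.6 CPM of it, the 17 heme members of day 3 held 10.8 CPM, and the source of this RNA was not tested. The repressor Bach1 passed 2-fold on day 7 (23.7 against 83.3 CPM, relative log2 ratio 1.53, interval 1.01 to 2.02). Over the heme and iron list 4 of 9 measured genes were 2-fold higher on day 5 and 3 of 8 on day 7, none lower, with medians of 0.72 and 0.76. The count of day 5 includes Hmox1 and Slc40a1. On day 4 6 of 10 were higher (median 1.65), and with up to 5000 genes 4 of 9 (median 0.68). In the other cells 6 of 11 were higher and 1 lower on day 5 (median 1.22). On day 7 9 of 12 were higher there and 0 lower (median 1.37).

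Genes of the NRF2 and oxidant response were higher as a group. On day 5, 11 of 22 measured genes passed 2-fold upwards and 0 downwards (median 0.96), and on day 7 12 of 21 and 0 (median 1.19). In members with up to 5000 genes the counts were 8 and 11 (medians 0.85 and 1.14). On day 4 the count went from 11 of 23 to 2 of 21 when members with over 5000 genes were left out (median 0.98 to 0.31). Leaving out members with S100a8 and S100a9, neutrophil genes, summed above the median moved the day 7 median to 0.71. In the other cells of the cultures, where 5.66% of genes on day 5 (3.14% higher, 2.52% lower) and 10.8% on day 7 (5.53% higher, 5.23% lower) passed 2-fold, 12 and 14 genes of the list were higher on days 5 and 7 (medians 1.13 and 1.36).

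Abcc1, an exporter of glutathione conjugates, had similar ratios in all members and in those with up to 5000 genes. It stood at 56, 28.7 and 29.6 CPM in control and 147, 142 and 197 CPM in heme members, with relative log2 ratios of 1.23, 2.08 and 2.46 and, with up to 5000 genes, 1.14, 2.16 and 2.41. Gclm and Gclc, the subunits of the enzyme that limits glutathione synthesis, were both higher. Gclm stood at 73.0, 60.1 and 48.7 CPM in control against 418, 339 and 208 CPM in heme members. Gclc stood at 98.5, 33.2 and 13.9 against 147, 90.6 and 58.0 CPM. In control members both subunits were lower on day 7 than on day 4, and on each day heme members held more. Gclm ratios of 2.36, 2.27 and 1.82 became 0.83, 1.39 and 1.76 with up to 5000 genes. Day 0 cells, at 297 and 289.9 CPM of Gclm in the control and heme libraries, held more of it than control members. Gstm1, a glutathione transferase that detoxifies reactive compounds, stood at 84.9, 43.5 and 32.8 against 300.4, 165 and 170.3 CPM. Nqo1, a quinone reductase, stood at 10.2, 5.38 and 1.25 against 66.2, 40.6 and 18.1 CPM and was thus near the limit of counting in control. Import of cystine and repair of oxidised proteins were represented as well. Slc7a11, the cystine importer, stood at 98.5, 118 and 127 against 316, 295 and 337 CPM, with ratios of 1.52, 1.09 and 1.13 and, with up to 5000 genes, 0.64, 0.79 and 1.14. Srxn1 (sulfiredoxin) stood at 20.4, 20.6 and 14.8 against 95.6, 67.3 and 67.0 CPM. Txnrd1 (thioredoxin reductase) stood at 98.5, 75.8 and 31.0 against 304, 182 and 99.6 CPM. The NADPH-producing enzymes G6pdx, Pgd and Me1 were higher too. G6pdx stood at 22.1, 17.5 and 17.1 against 71.3, 62.9 and 52.5 CPM. Pgd stood at 83.2, 55.2 and 46.9 against 248, 169 and 136 CPM. Me1, low in control, stood at 5.09, 4.94 and 2.50 against 35.6, 31.8 and 23.5 CPM. Prdx1 (peroxiredoxin) leaned on members with over 5000 genes, since its heme level of 3462, 1659 and 987 CPM became 886, 1021 and 709 CPM with up to 5000 genes, against 608, 538 and 356 CPM in control. Nfe2l2, which encodes NRF2, did not differ by 2-fold (0.06, -0.35 and -0.21).

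Promoter windows of 4 oxidant response genes and of Cxcl2, all higher in the pooled heme members, are shown to place 2 known motifs beside these differences. RefSeq promoters (250 bases before to 50 after each start, GRCm38.p6) were searched on both strands for TGACNNNGC, the core of the antioxidant response element bound by NRF2, which 12.4% of 32851 promoters hold, and for the NF-kB motif GGAATTTCC (0.317%). Counted by gene, as the sets below are, the antioxidant core was found in 14% and the NF-kB motif in 0.381% of 27025 genes. The motifs do not overlap, and longer spellings of both, searched first, matched partly different genes. Promoters were at hand for 8 of 12 genes of the NRF2 and heme lists that were higher on days 5 and 7. The antioxidant core was found in 6 of them (G6pdx, Gclm, Pgd, Prdx1, Srxn1 and Txnrd1). The NRF2 list was drawn up from genes of this response, so matches could follow from that choice. The count is therefore a description, and list genes that were not higher are not counted. Among the 10 genes that led the heme side, 6 had a promoter, of which Hsph1 held the antioxidant core and Cxcl2 the NF-kB motif. The NF-kB motif also lay in Nfkbia and Tnfaip3 among 14 of the 16 NF-kB genes. Neither motif lay in the 3 promoters found for the 5 marker genes. The windows are written 5′ to 3′ on the strand of the gene with the match in capitals, and all lie upstream of the transcription start.
Txnrd1 (chr10:82859089-82859147): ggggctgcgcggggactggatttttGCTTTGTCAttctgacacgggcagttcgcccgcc
Gclm (chr3:122245398-122245456): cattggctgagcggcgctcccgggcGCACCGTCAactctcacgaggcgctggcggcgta
G6pdx (chrX:74428904-74428962): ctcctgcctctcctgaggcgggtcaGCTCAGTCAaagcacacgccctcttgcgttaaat
Prdx1 (chr4:116685441-116685499): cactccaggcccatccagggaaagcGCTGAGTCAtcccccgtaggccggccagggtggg
Cxcl2 (chr5:90903778-90903836): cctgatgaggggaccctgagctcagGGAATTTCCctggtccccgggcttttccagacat
The first 4 matches lie on the strand opposite to the gene and begin 92, 134, 57 and 133 bases before the start, and the match in Cxcl2 begins 96 bases before it. A match describes these letters and is no evidence of binding.

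Of the genes of DC maturation, some were lower in heme members on days 5 and 7 and none was 2-fold higher. On day 4, 1 of 23 was 2-fold higher and 1 lower (median -0.36), and with up to 5000 genes 2 were higher and 1 lower (median -0.07). Of the 24 genes measured 4 were 2-fold lower on day 5 (median -0.48), as were 7 of 23 on day 7 (median -0.14). With up to 5000 genes the counts were 3 and 7. Il4i1 stood at 1334, 1051 and 888 CPM in control and 809, 598 and 328 CPM in heme members and was lower in heme on each day. Its relative log2 ratio was -0.88 (-1.01 to -0.75), -1.04 (-1.13 to -0.95) and -1.72 (-1.94 to -1.50), and -0.62, -0.98 and -1.81 with up to 5000 genes. Relb, the NF-kB subunit that DC maturation needs, stood at 263, 235 and 210.5 against 179, 141 and 116 CPM (-0.71, -0.96 and -1.14). Nudt17, a nudix hydrolase, stood at 256, 279 and 228 against 157, 118 and 86.9 CPM (-0.86, -1.46 and -1.67). These 3 genes were lower in heme by more on each later day. Eno3, the muscle enolase, stood at 98.5, 88.4 and 89.0 against 57.1, 29.7 and 23.5 CPM. Zmynd15 stood at 20.4, 35.9 and 36.0 against 15.3, 13.9 and 5.43 CPM. Fabp5, which passed 2-fold on day 7 alone, stood at 5912, 5568 and 6649 against 4177, 4651 and 3278 CPM. Serpinb6b was level on day 4 and 2-fold lower on day 7 (380.2, 484 and 394 against 444, 357 and 172 CPM, 0.06, -0.66 and -1.48). Other markers did not separate the libraries by 2-fold. Socs2, a feedback inhibitor of cytokine signalling, stood at 659, 634 and 579 against 752, 736 and 869 CPM. Cd83 stood at 304, 327 and 292 against 289.6, 233 and 398 CPM. Tmem123 stood at 837, 961 and 983 against 961, 1045 and 1289.6 CPM. The rule genes themselves went in different directions on day 7, and are given as a description. Ccr7 stood at 895, 871 and 890.3 against 841, 942 and 1507 CPM. Fscn1 stood at 1166, 859 and 612 against 994, 747 and 391 CPM.

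**Figure D5:**
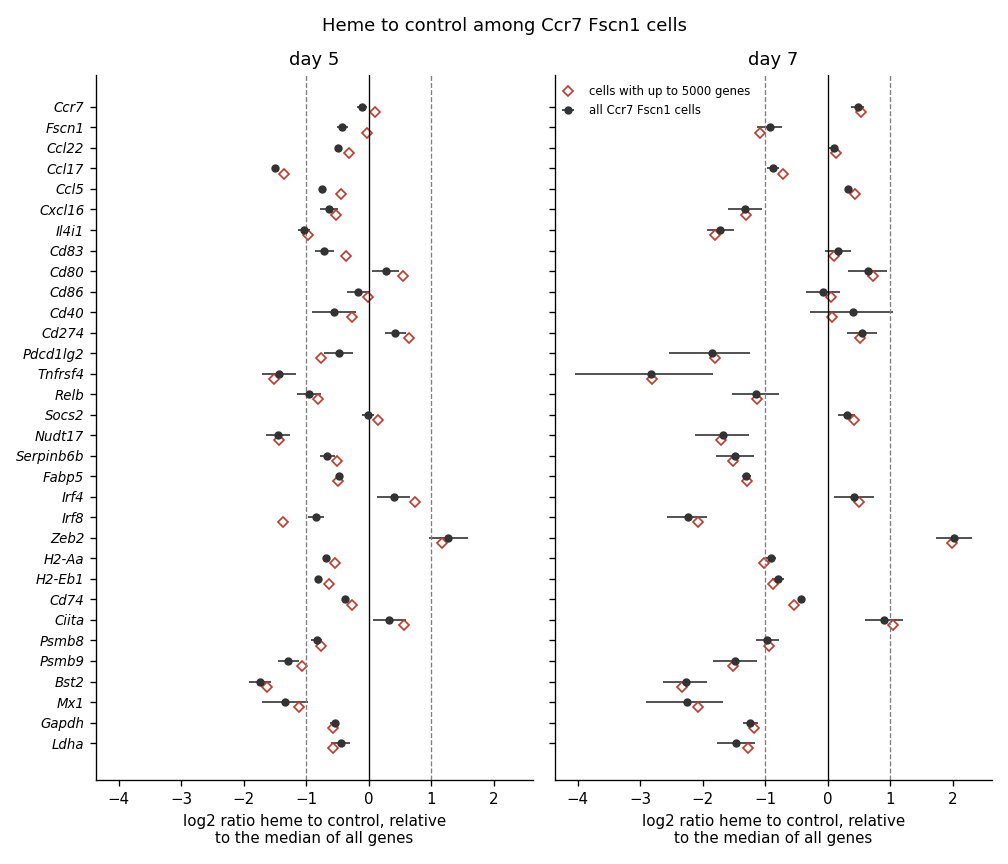
Relative log2 ratio of heme to control Ccr7 Fscn1 cells for 32 genes on day 5 (left) and day 7 (right). Filled points with bars are all members with 95% counting intervals, open diamonds are members with up to 5000 genes, the solid line marks the median of all genes and the dashed lines 2-fold. Tnfrsf4, Irf8, Mx1 and Bst2 lie furthest to the left on day 7 and Zeb2 furthest to the right.

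Costimulation differed in single genes. The costimulator Cd80 stood at 131, 123 and 102 CPM in control against 158, 173 and 194 CPM in heme members. Cd86 stood at 175, 203 and 201 against 169, 209.6 and 232 CPM. Both bind CD28 on T cells. Cd40 stood at 67.9, 60.1 and 26.9 against 98.4, 47.7 and 43.5 CPM. The checkpoint ligand Cd274 (PD-L1) stood at 210.5, 188 and 177 against 281, 294 and 315 CPM. None of these 4 passed 2-fold on any day (relative log2 ratios on day 7 of 0.64, -0.08, 0.41 and 0.55), although Cd80 and Cd274 lay above the median on days 5 and 7. Pdcd1lg2 (PD-L2) was lower on day 7, at 122, 135 and 119 against 124, 113 and 39.8 CPM (-1.86, interval -2.54 to -1.25). Tnfrsf4 (OX40) was lower on each day, at 199, 137 and 84.7 against 74.7, 59.2 and 14.5 CPM (-1.57, -1.43 and -2.83), with 8 UMIs in the heme members of day 7. Over the list, 1 of 10 genes was lower on day 5 and 2 of 10 on day 7, and none was higher. In the NF-kB list no gene passed 2-fold on day 5, and Relb and Nfkbib were lower on day 7. Rel lay above the median on each day, at 414, 328 and 326 against 585, 529 and 587 CPM (0.34, 0.46 and 0.57).

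Transcription factors of DCs diverged. Irf8 stood at 502, 456 and 598 CPM in control and 256, 297 and 154 CPM in heme members (-1.13, -0.84 and -2.24). Irf4 stood at 88.3, 81.7 and 106 against 105, 125 and 174 CPM (0.09, 0.40 and 0.43). Heme members thus held less Irf8 on each day, and Irf4 stayed within 2-fold. Zeb2, a repressor active in several myeloid lineages, stood at 27.2, 48.9 and 54.0 against 130.1, 138 and 266 CPM, with relative log2 ratios of 2.10, 1.27 and 2.02 and 1.51, 1.17 and 1.98 with up to 5000 genes. Other heme cells of day 7 held 414 CPM of Zeb2 and other control cells 222 CPM. Batf3 and Spi1 differed little (day 7 0.13 and -0.26). Stat4 was lower on each day, at 126, 124 and 163 against 61.7, 68.0 and 16.3 CPM (-1.19, -1.09 and -3.61).

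Chemokines and their receptors did not move together. Ccl22 stood at 3964, 4369 and 2542 CPM in control and 3919, 3636 and 3309 CPM in heme members and stayed within 2-fold (-0.18, -0.49 and 0.10). Ccl17 stood at 3135, 3827 and 2644 against 3286, 1579 and 1748 CPM, level on day 4 and lower on day 5 (-1.50, interval -1.55 to -1.45) and day 7 (-0.88, interval -0.97 to -0.78). Its median over single cells on day 5 was 2156 CPM in control and 1065 CPM in heme. Cxcl16, a transmembrane chemokine, stood at 435, 367 and 424 against 339, 276 and 206 CPM (-0.52, -0.63 and -1.32). Ccl3 and Ccl4, attractants of inflammatory cells, changed side with the depth of the members. Ccl4 stood at 565, 106 and 225 CPM in heme members against 93.4, 15.7 and 75.3 CPM in control, but at 32.4, 23.4 and 22.1 CPM in heme members with up to 5000 genes. Its ratios of 2.44, 2.53 and 1.30 became -1.80, 0.65 and -2.06, and those of Ccl3 went from 2.37, 1.88 and 0.77 to -0.90, 0.18 and -0.90. Cxcl2, a neutrophil attractant, stood at 15.3, 7.18 and 21.0 against 182, 88.2 and 94.2 CPM and became 27.2, 40.3 and 22.1 CPM with up to 5000 genes. The list median on day 7 went from 0.21 to -0.61 in the same step. Gpr183, an oxysterol receptor that positions DCs, was lower at 121, 94.7 and 45.1 against 84.8, 43.3 and 25.4 CPM (-0.67, -1.35 and -1.11), and S1pr3, a sphingosine phosphate receptor, was higher on day 7 at 22.1, 27.8 and 14.3 against 38.5, 55.4 and 56.1 CPM (0.64, 0.77 and 1.69).

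Antigen presentation genes were mostly below the median of all genes on days 5 and 7, but not on day 4, when 2 of 10 MHC class II genes were 2-fold higher in heme and 0 lower (median 0.11). H2-Ab1 stood at 1625, 1466 and 1345 CPM in control against 2462, 1076 and 909 CPM in heme members. H2-Aa stood at 3473, 3507 and 4009 against 3794, 2546 and 2588 CPM. The invariant chain gene Cd74 stood at 12210.2, 12552 and 11723 against 12946, 11299 and 10612 CPM. On days 5 and 7 these 3 were lower in heme, within 2-fold (relative log2 ratios on day 7 of -0.85, -0.91 and -0.43). Ciita, the activator of MHC class II transcription, lay on the other side, at 78.1, 85.3 and 87.6 against 179, 125 and 199 CPM (1.04, 0.33 and 0.90). On day 7, 1 of 10 class II genes passed 2-fold downwards (median -0.72), while in the other cells 9 of 10 did (median -1.93), a difference between members and other cells that was not tested. Of the class I genes, Psmb9, Psmb10 (immunoproteasome subunits) and H2-Q7 were 2-fold lower on day 7, with Psmb9 at 323, 354 and 303 against 201, 169.7 and 132 CPM (-0.84, -1.29 and -1.48), and the peptide transporter gene Tap2 was not (37.1 against 88.7 CPM on day 7, 0.98, interval 0.50 to 1.43). The list held 3 lower genes of 13 on day 7 (median -0.56).

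Interferon-inducible genes held some of the lowest ratios. Bst2 (tetherin) stood at 348, 376 and 502 CPM in control and 127, 132 and 127 CPM in heme members (-1.62, -1.74 and -2.27, and -1.52, -1.63 and -2.33 with up to 5000 genes), with 228 and 85.0 CPM in other cells of day 7. Mx1, an antiviral GTPase, stood at 44.1, 74.9 and 171 against 11.9, 34.5 and 43.5 CPM (-2.05, -1.34 and -2.26). In control members Mx1 and Bst2 were higher on day 7 than on day 4, and Bst2 was level in heme. Usp18, which removes the ubiquitin-like Isg15, stood at 54.3, 38.1 and 24.3 against 28.8, 16.2 and 7.24 CPM. Isg15 stood at 30.6, 25.1 and 18.9 against 18.1, 6.76 and 5.43 CPM. The list was not uniform, since Gbp5 was higher (88.3, 82.1 and 55.1 against 163, 133 and 139 CPM, 0.73, 0.47 and 1.06) and 3 of 8 measured genes were lower and 1 higher on day 7 (median -0.01). On day 5 3 of 9 were lower (median -0.67).

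Glycolytic genes separated the libraries on day 7. Gapdh stood at 1012, 1217 and 2051 CPM in control and 874, 973 and 1056 CPM in heme members (-0.37, -0.55 and -1.24). Aldoa (aldolase) stood at 555, 590.1 and 921 against 569.6, 616 and 489 CPM (-0.12, -0.16 and -1.19). Ldha (lactate dehydrogenase) stood at 212, 278 and 377 against 219, 237 and 167 CPM (-0.11, -0.45 and -1.46). No glycolytic gene passed 2-fold on days 4 or 5, and 5 of 11 were lower on day 7 (median -0.76). In control members all 3 were higher on day 7 than on day 5, and in heme members Aldoa and Ldha were lower. With up to 5000 genes 3 genes remained past 2-fold on day 7 and the median was -0.93. In the other cells the median on day 7 was -0.84.

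Uptake receptors and phagocyte genes were higher in the pool of heme members, and their medians lay nearer that of all genes with up to 5000 genes. On day 4, 8 of 10 measured genes were 2-fold higher (median 1.82), and with up to 5000 genes 1 of 6 (median -0.07). On days 5 and 7 the medians of 1.04 and 0.48 became 0.25 and 0.07. The counts of 2-fold higher genes went from 5 of 9 and 3 of 9 to 2 of 7 and 0 of 6. With up to 5000 genes 1 gene was 2-fold lower on each of these days. Lyz2 stood at 1223, 1089 and 527 CPM in heme members and 309, 385 and 300.4 CPM in those with up to 5000 genes. Itgax stood at 133, 56.1 and 30.8 CPM and 25.9, 35.7 and 24.3 CPM, against 57.7, 74.9 and 77.6 CPM in control. The pattern recognition receptor Clec4n (Dectin-2) was still higher on days 4 and 5 with up to 5000 genes (1.12, 1.80 and 0.38), from 204, 193 and 172 CPM in control to 364, 478 and 216 CPM. Its level in heme day 0 cells was 99.4 CPM, and that in other heme cells of day 7 3874 CPM. Whether members with over 5000 genes are pairs of cells was not tested.

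Among all genes, the 10 that led the heme side on both days 5 and 7 were Hmox1, Thy1, Mt3, Slc48a1, Mgll, Abcc1, Uchl1, Tma16, Cxcl2 and Hsph1. Thy1, a glycoprotein best known from T cells and fibroblasts, stood at 0, 2.69 and 1.07 CPM in control and 3.39, 37.5 and 43.5 CPM in heme members, and at 12.3 CPM in other heme cells of day 7. It was low on day 4 in both libraries and on every day in control. Mt3, a metallothionein, stood at 1.70, 13 and 6.06 against 327, 141 and 52.5 CPM, and its heme levels were 15.6, 103 and 57.4 CPM with up to 5000 genes and 9.19 CPM in day 0 cells. Mgll, a lipase that cleaves monoacylglycerols, stood at 22.1, 13.5 and 18.9 against 75.2, 79.8 and 103 CPM and at 59.1 CPM in other heme cells of day 7. Uchl1, a ubiquitin hydrolase, stood at 5.09, 10.3 and 4.82 against 38.5, 50 and 50.7 CPM. Tma16 stood at 40.7, 26.5 and 21.0 against 153, 127 and 145 CPM. The chaperone gene Hsph1 stood at 15.3, 17.1 and 13.9 against 62.2, 78.4 and 61.6 CPM. All 4 were also higher in heme on day 4.

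At the other end were Mucl1, Klrk1, Slamf9, Ifi27l2a, Asgr2, Rnaset2a, Rpa3, Eno3, Clu and Bst2. Mucl1 was counted at 235 and 236 UMIs in control members of days 5 and 7 (105 and 42.1 CPM) and at 0 in the heme members of both days. If a count of 0 is set to 3 UMIs, the heme to control ratio was at most 0.00962 on day 5 and 0.129 on day 7. Klrk1 (NKG2D) stood at 22.1, 42.6 and 56.2 against 9.05, 6.76 and 3.62 CPM. Slamf9 stood at 30.6, 36.8 and 43.9 against 16.4, 9.13 and 3.62 CPM. Ifi27l2a, an interferon-inducible gene, stood at 64.5, 363 and 520.3 against 56.6, 96.3 and 67.0 CPM, with 984 and 70.1 CPM in other cells of day 7. Asgr2, a lectin, stood at 56, 31.4 and 135 against 20.4, 9.80 and 0 CPM and was more abundant in other control cells of day 7 (627 CPM). With its count of 0 set to 3 UMIs, the day 7 ratio was at most 0.0402. In contrast, Rnaset2a, an RNase, was more abundant in members, at 34, 43.1 and 63.5 CPM in control, 13.6, 14.2 and 9.06 CPM in heme and 10.7 CPM in other control cells of day 7. Clu (clusterin) stood at 0, 31.0 and 40.3 against 3.96, 9.47 and 14.5 CPM. Rpa3, a subunit of replication protein A, stood at 45.8, 50.7 and 43.2 against 18.1, 16.9 and 12.7 CPM, with 116 and 55.8 CPM in day 0 cells, where it was also lower in the heme library.

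Heme members of day 7 were also set against cells of the same culture that carried macrophage genes. Against cells with at least 2 UMIs each of Marco and of Mrc1, the mannose receptor, 31.5% of 5756 genes passed 2-fold (15% higher, 16.4% lower). NRF2 and oxidant genes were lower in members for 13 of 24 genes and higher for 0 (median -1.29), and heme and iron genes were lower for 8 of 13 (median -1.33). MHC class II genes were higher for 7 of 10 (median 2.43), and the mature DC programme for 19 of 20 (median 3.97). The rule chose members by 2 DC genes and these cells by 2 macrophage genes, so the contrast is a description of both.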

How the data were processed

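Per the labels, cells of both libraries were sequenced with a droplet method that counts 3′ ends. The authors deposited raw UMI counts per gene and barcode, made with Cell Ranger (4.0.0 in the submitters' processing notes, 5.0.0 in the matrix headers; genome build GRCm38.p6), and hashtag calls from Seurat 3.2.3, both used as they stand. Of 26124 listed genes, 38 symbols occurred more than once. Members and gene lists were chosen with earlier results of these data known.

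Counts were summed over the members of each culture and divided by their total (CPM), over cultures of 114455 to 5606205 member UMIs. Genes entered a ratio at a mean of 20 CPM over both cultures. Log2 ratios were centred on their median, 2-fold was the limit, a count of 0 was set to 3, and intervals (95%) were exact for 2 Poisson counts or binomial (Clopper-Pearson), covering counting error only. Share differences added both intervals in quadrature. No p-value is given, since each group was 1 library. Genes were named by a rule: those of fixed lists, the 10 highest and lowest of heme to control (past 2-fold on days 5 and 7) and of day 7 to day 5 in control, and the 15 leading genes of members, without mitochondrial, ribosomal protein, Gm and Rik genes. A gene that this rule named is not reported here. Ifitm1 and Cstdc4 were named for their spread among cells, after values were seen. Reads shared by close paralogs (stefins, Bcl2a1 genes, class II genes) were not separated. Alternatives covered the rule, cell filters, depth, scaling (edgeR 4.0.16) and gene filters. The ratio step was tested on simulated counts. Python 3.11.15 with numpy 2.4.6, scipy 1.17.1 and pandas 2.3.3 was used.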

Additional observations from a re-analysis of the deposited data

Results flagged for a closer look

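The libraries parted between days 5 and 7. From day 5 to day 7 the share of Ccr7 Fscn1 cells was 8.97 percentage points higher in control and changed by -3.16 points in heme, and this difference between the libraries was singled out because the changes have opposite signs. With 1 culture per day and library it was not tested.

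Barcodes without a hashtag, which no comparison used, held Ccr7 Fscn1 cells in the control library, where 5 of 402 (1.24%) met the rule, against 0 of 907 in the heme library (exact 95% upper limit 0.406%).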

How the results depend on the processing

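The heme minus control share on day 7 stayed negative under all settings tried, at -15.6 points with 1 UMI of each rule gene, -11.2 with 3, -11.6 with all 5 markers required, -9.85 after thinning to 5000 UMIs and -9.10 without cells of over 5000 genes or 30% ribosomal UMIs, and 23 other share differences moved by less than their counting intervals. Gene counts followed the filter and the limit. For heme against control on days 4, 5 and 7, the genes higher and lower numbered 565 and 268, 322 and 226, and 650 and 731 from 10 CPM, 107 and 39, 83 and 48, and 199 and 142 from 50 CPM, and 1789 and 2671, 1386 and 1933, and 3845 and 2494 with any UMI. At a 1.5-fold limit they were 796 and 611, 638 and 543, and 1014 and 1088, and at 4-fold 62 and 11, 34 and 8, and 28 and 51. For control day 7 against day 5 they were 61 and 61, 7 and 15, 823 and 2189, 178 and 172, and 7 and 4 under the same 5 settings. On day 4, 228 genes were lower without cells of over 5000 genes or 30% ribosomal UMIs and 207 without members of over 5000 genes alone (a setting added after the data were seen), and without members rich in S100a8 and S100a9 512 were higher and 219 lower.

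Of 286 list medians 30 moved by more than the typical counting error of the list's genes. On day 5, heme and iron genes reached 1.14 with totals free of ribosomal and mitochondrial UMIs, 1.22 from 10 CPM, 1.27 from 50 CPM and 1.40 with any UMI. Chemokines went to -0.33 without cells of over 5000 genes or 30% ribosomal UMIs, -0.30 without members of over 5000 genes, 0.72 without members rich in S100a8 and S100a9 and 0.39 from 10 CPM. Uptake genes went to 0.14 and 0.25 under the first 2 of these and to 1.40 from 50 CPM, MHC class II to -0.13 under the first and the DC programme to -0.31 under the second. Interferon genes went to -0.25 without members rich in S100a8 and S100a9 and to -0.32 from 50 CPM. On day 7, heme and iron genes reached 1.65 with the reduced totals and 1.62 from 10 CPM. Chemokines went to -0.84 and -0.61 without cells of many genes as above, -0.52 with all 5 markers required and -0.37 with any UMI. Uptake genes went to -0.35 with all 5 markers and -0.70 without members rich in S100a8 and S100a9, where NRF2 genes went to 0.71. Interferon genes went to -0.58 from 10 CPM. With any UMI the DC programme went to -0.61, MHC class II to -1.18, MHC class I to -0.89, NF-kB to -0.48 and glycolysis to -1.23. Single genes had values on the other side of 0 too. Without cells of over 5000 genes or 30% ribosomal UMIs, the day 4 relative log2 ratios of heme to control were -0.97 for Ccl3, -1.87 for Ccl4, -1.17 for Itgax and -0.37 for Lyz2, and without members of over 5000 genes alone -0.90, -1.80, -1.09 and -0.31. On day 7 Ccl4 went to -2.55 and -2.06 in these settings and to -2.36 with all 5 markers required, where Cxcl2 went to -0.084. Leaving out members by their S100a8 and S100a9 levels selects on these genes and on those that vary with them, so nothing is read from their values under it. The day 4 ratios were 0.98 for Lcn2, 0.95 for Ltf, 1.65 for Ngp, 0.81 for S100a8 and 1.07 for S100a9, the day 5 ratio was 0.84 for Plac8, and control day 7 to day 5 gave -0.18 for Ccl4, 0.10 for Lcn2, 0.41 for Plac8 and 0.12 for S100a9. On day 7, leaving out members with 10% or more mitochondrial UMIs (also added later) moved uptake genes to 0.88, heme and iron genes to 1.02 and chemokines to 0.52, each by less than that typical counting error. The causes were not tested. No paired analysis was possible because each group was 1 library. No library could be left out for the same reason, and depth limits genes near 20 CPM on heme day 7, where 1 UMI is 1.81 CPM.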
